A study of Mus musculus with 10 samples.

Results

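Hair shaft keratins, inner root sheath keratins and keratin-associated proteins are the structural proteins of the hair follicle, and 76 of their genes were followed here in mouse skin among 55487 gene identifiers. The genes were chosen by name: every protein-coding symbol that begins with Krtap (57 genes) and 19 keratins of the hair shaft or inner root sheath. Of 20 keratins on the list, 1 was not analysed here. Skin RNA was sequenced from 10 mice, with 1 library per mouse. 5 mice carried a genotype that the labels write as Hamp1-KI ker (KI here) and 5 were wild type (WT). Hamp encodes hepcidin, the hormone that makes cells retain iron, and the labels spell out neither "ker" nor what drives the knock-in. The sample titles begin with EAS42 (3 KI, 2 WT) or EAS37 (2 KI, 3 WT). The labels do not say what these prefixes stand for, and they give no age, sex or skin site. Libraries are named by genotype and replicate: KI 3, KI 4, KI 5, WT 4 and WT 5 are EAS42, and KI 1, KI 2, WT 1, WT 2 and WT 3 are EAS37.

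A hair shaft is built in the growing follicle, where matrix cells differentiate into cuticle, cortex and medulla and are moulded by the surrounding inner root sheath. Type I (acidic) and type II (basic) keratins pair into filaments. In the shaft, keratin-associated proteins embed and cross-link these filaments through cysteine. Resting follicles make little of either, so the set is known as a marker of active shaft formation. Inner root sheath keratins, by contrast, belong to the sheath that surrounds the shaft and is later broken down.

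The 76 genes fall into 7 classes. The inner root sheath keratins are Krt25, Krt26, Krt27 and Krt28 (type I) and Krt71, Krt72 and Krt73 (type II). The hair shaft keratins are Krt31, Krt32, Krt33a, Krt33b, Krt34, Krt35 and Krt36 (type I) and Krt81, Krt82, Krt83, Krt84 and Krt86 (type II). The keratin-associated proteins were split by the amino acids that their codons spell. In 19 of them glycine and tyrosine made up at least 35% of codons (high glycine-tyrosine), in 17 others cysteine made up at least 30% (ultra-high sulfur), and the remaining 21 are called high sulfur. Median glycine plus tyrosine was 62.7% in the first class, and median cysteine was 37.7% in the second. The rule put Krtap7-1 among the high sulfur genes. It put Krtap5-2, Krtap5-3, Krtap28-10 and Krtap28-13 in the first class by glycine alone, since their codons spell 0% tyrosine. Cysteine made up 34.6%, 35.11%, 42.86% and 42.75% of their codons, in that order, so they also met the cysteine limit of the second class. Their relatives Krtap5-1, Krtap5-4 and Krtap5-5 were placed in the second class.

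These genes lie in clusters. On GRCm38, chromosome 11 held 34 of them between 99315516 and 100105626, namely all type I keratins and 23 Krtap genes. Chromosome 16 held 24 Krtap genes between 88610705 and 89571183, and chromosome 15 held the 8 type II keratins between 101459061 and 101802346. Chromosomes 7, 10 and 1 held 5, 3 and 2 genes. All 57 Krtap genes have 1 exon, against 7 to 9 exons in the keratins.

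The letters of a TATA box recur before these genes. The choice by name did not use these letters, but it picks clustered gene families that share sequence in part. Their promoters are therefore not separate observations. TATAAA occurred on the gene's strand between 45 and 16 bases before the RefSeq start in 40 of 65 members with a promoter in the table (61.5%), and in 639 of all 27025 promoters (2.36%). On both strands of the whole 300 bases, 54 of 65 members (83.1%) held TATAAA or its complement TTTATA, against 14.2% of all promoters. CTTTGA (complement TCAAAG) occurred in 20 of 65 members (30.8%), against 16.2% of all promoters. TTTATG (complement CATAAA), which shares its first letters with TTTATA, occurred in 24 of 65 members (36.9%), against 12.1% of all promoters. A match describes these letters and does not show a site in use. The 100 bases before the start are shown for 5 genes on which the results below turn, from RefSeq on GRCm38.p6 and in 5′ to 3′ direction, with TATAAA in capitals. Krtap8-1 (chr16:89487953-89488052, minus strand) had the highest mean level. Krtap3-2 (chr11:99556854-99556953, minus strand) kept a level in EAS42 skin, and Krtap3-3 (chr11:99550864-99550963, minus strand) is its neighbour that did not. Krtap20-2 (chr16:89205761-89205860, plus strand) had the smallest p for KI against WT, and Krtap11-1 (chr16:89571184-89571283, minus strand) had a positive KI/WT ratio once inner root sheath level was equalized.
Krtap8-1: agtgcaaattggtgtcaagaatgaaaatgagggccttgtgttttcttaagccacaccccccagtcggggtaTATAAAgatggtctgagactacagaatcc
Krtap3-2: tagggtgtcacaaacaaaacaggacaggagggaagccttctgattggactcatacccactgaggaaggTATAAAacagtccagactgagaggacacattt
Krtap3-3: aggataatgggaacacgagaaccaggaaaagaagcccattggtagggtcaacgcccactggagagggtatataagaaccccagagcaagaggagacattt
Krtap20-2: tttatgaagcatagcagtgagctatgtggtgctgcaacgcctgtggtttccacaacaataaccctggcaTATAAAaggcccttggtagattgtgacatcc
Krtap11-1: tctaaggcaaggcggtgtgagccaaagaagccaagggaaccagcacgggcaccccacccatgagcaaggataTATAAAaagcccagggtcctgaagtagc

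Krtap3-2 and Krtap3-3 matched at 67 aligned bases of these 100. The exact letters TATAAA are not in the Krtap3-3 stretch shown, which holds the similar letters TATATAAG near the same place. Whether the difference in letters bears on the levels of these 2 genes was not tested.

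Each library held 18.96 to 26.43 M expected counts. Hamp stood at 85.6 to 169 CPM in KI libraries, against 1.86 to 3.33 CPM in WT libraries, and its log2 fold change was 5.47 ± 0.26 (SE, adjusted p = 3.78e-06 in edgeR, exact two-sided permutation p = 0.00794, the smallest that 5 against 5 libraries allow). Epidermal Krt5 (2994 to 4751 TPM) and dermal Col1a1 (202 to 1100 TPM) were present in every library. No library pair agreed within sampling noise (lowest chi-square per gene 27.0). The p-values measure the spread between mice within these groups.

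The 76 genes ranged from trace to major transcripts between libraries. In EAS42 skin their summed level was 33.5, 25.1 and 68.9 TPM in KI 3, KI 4 and KI 5 and 97.1 and 101 TPM in WT 4 and WT 5. In EAS37 skin it was 1203 and 3453 TPM in KI 1 and KI 2, and 474, 23666 and 2932 TPM in WT 1, WT 2 and WT 3. Every EAS37 library thus lay above every EAS42 library, the lowest of the first being 4.68 times the highest of the second, while KI and WT overlapped. Within each prefix the order differed: both WT libraries of EAS42 lay above all KI libraries of EAS42, whereas both KI libraries of EAS37 lay above WT 1.

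WT 2 stood apart. It was the highest library for 75 of the 76 genes, and the remaining gene, Krtap13, was at 0 everywhere. Its level was 1.44 times (Krt36) to 19.4 times (Krtap5-4) that of the next library, with a median of 5.62 times, and over 2 times for 71 genes. The 76 genes held 2.37% of all TPM in WT 2 and 0.345% or less in each other library. Results that rest on WT 2 are therefore also given without it. Because skin was sequenced in bulk, fewer cells of a type and less RNA per cell cannot be told apart here.

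**Figure D1:**
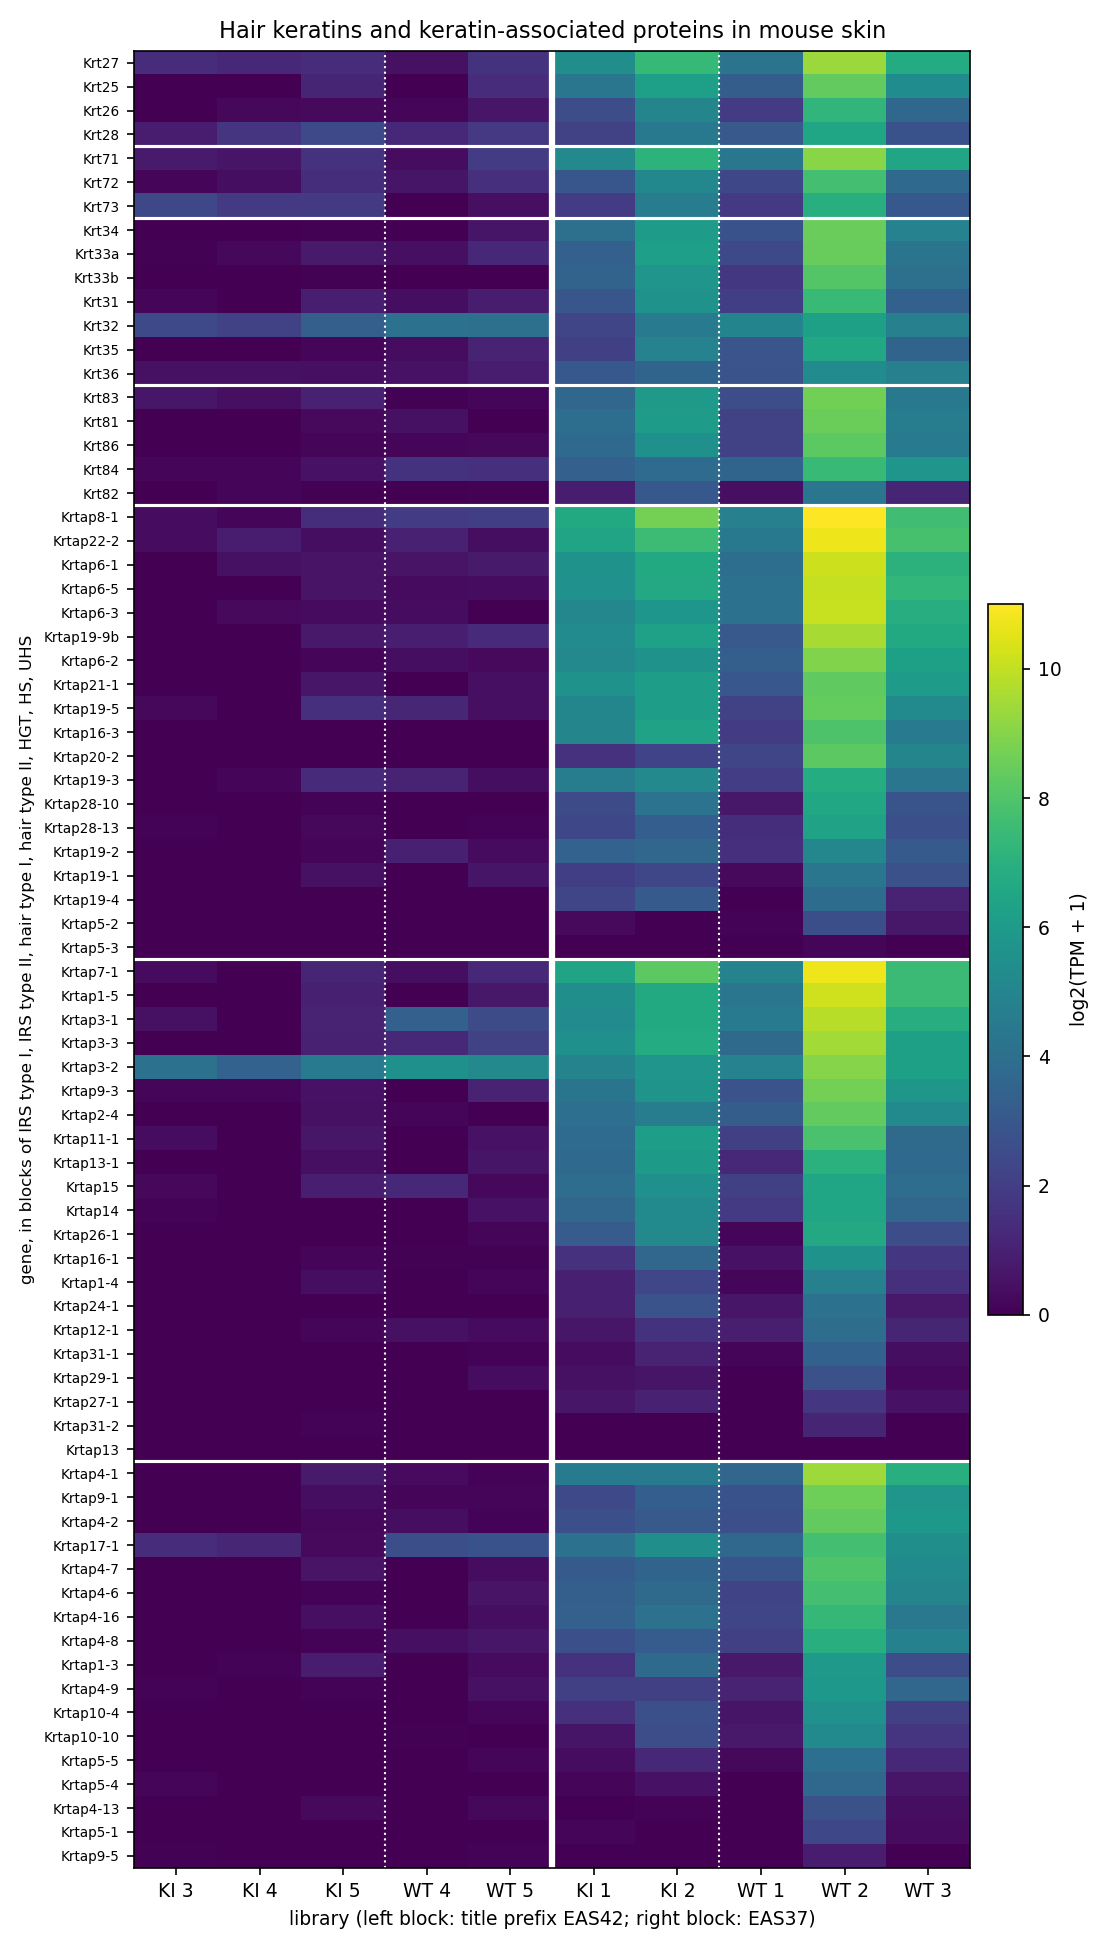
Level of the 76 genes as log2(TPM + 1), colour scale at the right, with genes in rows by class (IRS, inner root sheath; HGT, high glycine-tyrosine; HS, high sulfur; UHS, ultra-high sulfur) and libraries in columns, EAS42 at the left, EAS37 at the right and KI left of WT within each. The EAS42 columns are dark apart from a few rows such as Krtap3-2 and Krt32, and WT 2 is the brightest column, with 23666 summed TPM.

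Hair keratin and Krtap genes were lower in EAS42 than in EAS37 skin, in both genotypes. Without regard to any filter, 58 of the 76 genes had every EAS42 library below every EAS37 library, whereas 0.824% of all genes with a count did so, and none had the reverse, which 0.337% of all genes had. In edgeR with genotype in the model, 41 of 56 tested members fell in EAS42 and none rose, where 1.69% of 17321 genes were called lower and 0.785% higher. The 41 carry less weight than their number, since 30 of the 56 passed the low-count filter through EAS37 libraries alone and so had to differ. The number also hung on single libraries, with none called without WT 4 or without WT 5, 1 called without KI 1, KI 2, KI 3 or KI 5 each, 4 without KI 4, 17 without WT 3, 50 without WT 2 and 53 without WT 1. Calls over all genes moved too. Of all genes, 0.00570% and 0.0171% were called lower without WT 4 and without WT 5. The share was 0.0341%, 0.393%, 0.177%, 1.34% and 0.382% without KI 1 to 5, in that order. Without WT 1, WT 2 and WT 3 it was 1.69%, 1.92% and 0.646%. limma-voom called none and DESeq2 called 52, where they called 1.30% and 4.70% of all genes lower.

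The inner root sheath keratins fell as follows. Krt71, which is mutated in some wavy-coated mice, stood at 0.72, 0.54 and 2.06 TPM in EAS42 KI libraries and 0.30 and 2.77 TPM in EAS42 WT libraries. It stood at 35.1 and 139 TPM in EAS37 KI libraries and at 19.0, 526 and 87.0 TPM in EAS37 WT libraries. The ranges of the prefixes did not meet, and Krt71 fell by 6.80 ± 1.17 on the log2 scale (SE, adjusted p = 0.0368 in edgeR). Krt27, a type I partner, stood at 1.60, 1.37, 1.60, 0.40 and 2.02 TPM in EAS42 (KI 3 to 5, then WT 4 and 5), against 42.9, 166, 17.8, 649 and 107 TPM in EAS37 (KI 1 and 2, then WT 1 to 3). All 5 EAS42 values lay below the lowest EAS37 value, and its log2 change was -6.94 ± 1.18 (SE, adjusted p = 0.0365 in edgeR). Krt25 and Krt26 were also called lower, at log2 changes of -7.21 and -7.12. Krt28, Krt72 and Krt73 did not pass, at -3.24, -6.03 and -4.21.

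Of the hair shaft keratins, Krt36 gave the smallest p of all members. It held 0.39, 0.42, 0.37, 0.44 and 0.82 TPM in EAS42 (KI 3 to 5, then WT 4 and 5), against 7.16, 10.6, 5.95, 38.1 and 26.5 TPM in EAS37 (KI 1 and 2, then WT 1 to 3). The values were close together within EAS42 and spread widely within EAS37, and the log2 change was -4.93 ± 0.55 (SE, adjusted p = 0.0114 in edgeR). Krt33b, a cortex keratin, was at 0.00, 0.00 and 0.05 TPM in EAS42 KI libraries and at 0.00 TPM in both EAS42 WT libraries, against 10.4, 52.4, 2.42, 267 and 15.7 TPM in EAS37. It had a single count over the EAS42 libraries together. Krt34, Krt35, Krt81, Krt84 and Krt86 were called lower too, with log2 changes of -9.41, -6.43, -10.02, -5.43 and -9.38. Krt31 (-6.64), Krt32 (-1.84), Krt33a (-7.17), Krt82 (-6.68) and Krt83 (-7.75) did not pass in edgeR. Krt31, Krt33a, Krt33b and Krt34, and likewise Krt81, Krt83 and Krt86, share over 20% of their 50-base windows with a family member, so the split of reads within each trio or quartet is uncertain.

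Of the 3 classes of keratin-associated proteins, the high glycine-tyrosine genes had the highest sum in 4 of the 5 EAS37 libraries. In WT 1 they summed to 136.9 TPM, against 137.8 TPM for the high sulfur genes. Krtap8-1 stood at 0.28, 0.14 and 1.68 TPM in EAS42 KI libraries and 2.89 and 3.18 TPM in EAS42 WT libraries. In EAS37 it reached 101 and 421 TPM in KI libraries and 26.6, 2058 and 198 TPM in WT libraries. It had the widest range of all members, and it fell by 8.22 ± 1.44 on the log2 scale in EAS42 (SE, adjusted p = 0.0373 in edgeR). Krtap22-2 and Krtap7-1 had the next widest ranges, with highest values of 1708 and 1711 TPM in WT 2. Krtap21-1, Krtap6-2, Krtap6-5 and Krtap7-1 followed Krt36 and Krt84 in smallest p, with log2 changes of -8.95, -9.54, -9.98 and -9.27. Krtap6-1 (-8.99), Krtap22-2 (-9.13), Krtap1-5 (-9.52), Krtap3-1 (-6.06), Krtap3-3 (-7.20), Krtap4-1 (-9.08), Krtap4-2 (-8.82), Krtap9-1 (-9.01) and Krtap17-1 (-4.35) were likewise called lower.

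Some members were absent from all EAS42 libraries. Krtap16-3 had 0 counts there, against 2488 counts in the EAS37 libraries together. Taking 3 counts over the EAS42 group as the limit that a count of 0 allows, it was at least 878-fold lower in EAS42 than in EAS37. The same limit puts Krtap20-2 at least 648-fold lower and Krtap24-1 at least 184-fold lower. These folds rest largely on WT 2, which held 1465, 1561 and 327 counts of Krtap16-3, Krtap20-2 and Krtap24-1. In KI 1, KI 2, WT 1 and WT 3, Krtap16-3 had 242, 578, 20 and 183 counts. Krtap20-2 had 13, 22, 23 and 216 counts in these libraries, and Krtap24-1 had 23, 140, 13 and 18. The folds were not computed without WT 2. None of these 3 passed in edgeR, where EAS37 libraries themselves differ widely. In all, 9 members had 0 counts over EAS42 and 20 had no more than 3.

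The mixture of members also differed between the prefixes. Krtap genes of chromosome 16 summed to 0.0825, 0.154 and 0.386 times those of chromosome 11 in EAS42 KI libraries, and to 0.180 and 0.204 times in EAS42 WT libraries. In EAS37 the ratio was 2.48 and 3.03 in KI libraries, and 1.16, 1.81 and 1.51 in WT libraries. Chromosome 11 genes thus led in every EAS42 library and chromosome 16 genes in every EAS37 library. In EAS42 that order rested on Krtap3-2, a chromosome 11 gene: without it the ratio was 0.668, 1.22 and 1.44 in KI libraries and 0.651 and 0.571 in WT libraries, so that chromosome 16 genes led in KI 4 and KI 5. In EAS37 it was 2.78 and 3.32 in KI libraries, and 1.43, 1.97 and 1.64 in WT libraries without that gene. High glycine-tyrosine genes made up 2.45% to 12.8% of the summed level in EAS42, against 28.9% to 46.1% in EAS37. Hair shaft keratins made up 17.2% to 22.4% in EAS42, against 8.73% to 17.2% in EAS37. The EAS42 share rested mostly on Krt32. It held 4.40 of 5.76, 3.38 of 4.61 and 9.04 of 13.15 TPM of the hair shaft sum in EAS42 KI libraries. In EAS42 WT libraries it held 16.24 of 20.33 and 15.79 of 22.65 TPM. The higher share in EAS42 therefore does not describe the other hair shaft keratins.

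One gene, Krtap3-2, carried much of what remained in EAS42 skin. It encodes a small high sulfur protein of 99 codons at chromosome 11, 99555823 to 99556853, between Krtap3-3 and Krtap3-1. In EAS42 it stood at 16.3, 9.97 and 22.0 TPM in KI libraries and 45.1 and 35.4 TPM in WT libraries, which was 31.9% to 48.5% of the summed level of all members. In EAS37 it stood at 29.6 and 52.7 TPM in KI libraries and 28.4, 521 and 76.5 TPM in WT libraries, or 1.53% to 5.997% of the sum. WT 4 and WT 5 thus lay above KI 1 and WT 1, so that the prefixes overlapped, and its log2 change between the prefixes was -1.94 ± 0.77 (SE, adjusted p = 0.220 in edgeR).

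Both neighbours behaved otherwise. Krtap3-3 held 0.00, 0.00 and 0.99 TPM in EAS42 KI libraries and 1.37 and 3.52 TPM in EAS42 WT libraries, against 44.96, 109, 12.9, 721 and 74.9 TPM in EAS37. Krtap3-1 held 0.40, 0.00 and 1.09 TPM in EAS42 KI libraries and 9.23 and 4.97 TPM in EAS42 WT libraries, against 38.9, 103, 21.2, 915 and 116 TPM in EAS37. Krtap3-2 thus made up 80.6% to 100% of the summed level of these 3 genes in EAS42, against 19.9% to 45.5% in EAS37. Krtap3-2 shares 28.9% of its 50-base windows with another gene, most with Krtap3-3, and 80% of its deposited values are fractional. Whether reads were moved between these 2 genes was not tested.

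Krt32, a cuticle keratin, was among 10 members with a mean of at least 1 TPM in EAS42. It stood at 4.40, 3.38 and 9.04 TPM in EAS42 KI libraries and 16.2 and 15.8 TPM in EAS42 WT libraries. In EAS37 it stood at 3.87 and 22.9 TPM in KI libraries and 30.1, 74.6 and 26.7 TPM in WT libraries. KI libraries lay below WT libraries within each prefix, yet KI 2 lay above WT 4 and WT 5. In WT 1 alone Krt32 reached 48.1% of the summed inner root sheath keratin level, against 3.37% to 9.86% in the other EAS37 libraries. A predicted gene overlaps Krt32 on the opposite strand, and the sources used here do not give the strand setting of the counting.

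The question of the study's design, KI against WT, gave no call among these genes with genotype alone in the model. Of 56 tested members none passed in edgeR, where 30.9% of 17321 genes did (15.6% higher and 15.3% lower). 3 members had an unadjusted p under 0.05, and DESeq2 and limma-voom called none either, where they called 37.1% and 32.1% of all genes. All 56 log2 fold changes were negative, with a median of -2.18, against -0.01 over all genes. Without WT 2 the median was 0.59, and 23 of 56 were negative. That model leaves out the title prefix, by which these genes differ and which is not balanced between genotypes. With the prefix as a block over all 10 libraries, 2 of 56 members passed in edgeR, both lower (Krt84 and Krtap4-2), where 19.4% of all genes were called lower and 18.9% higher. In that fit 7 members had an unadjusted p under 0.05, the median was -1.55, and 55 were negative. In the same fit without WT 2, added after the data were seen, Krt84 alone passed, the median was 0.43 and 21 of 56 were negative. No member had all KI libraries on one side of all WT libraries, where 5.83% of all genes with a count had all KI libraries lower and 4.63% all higher.

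**Figure D2:**
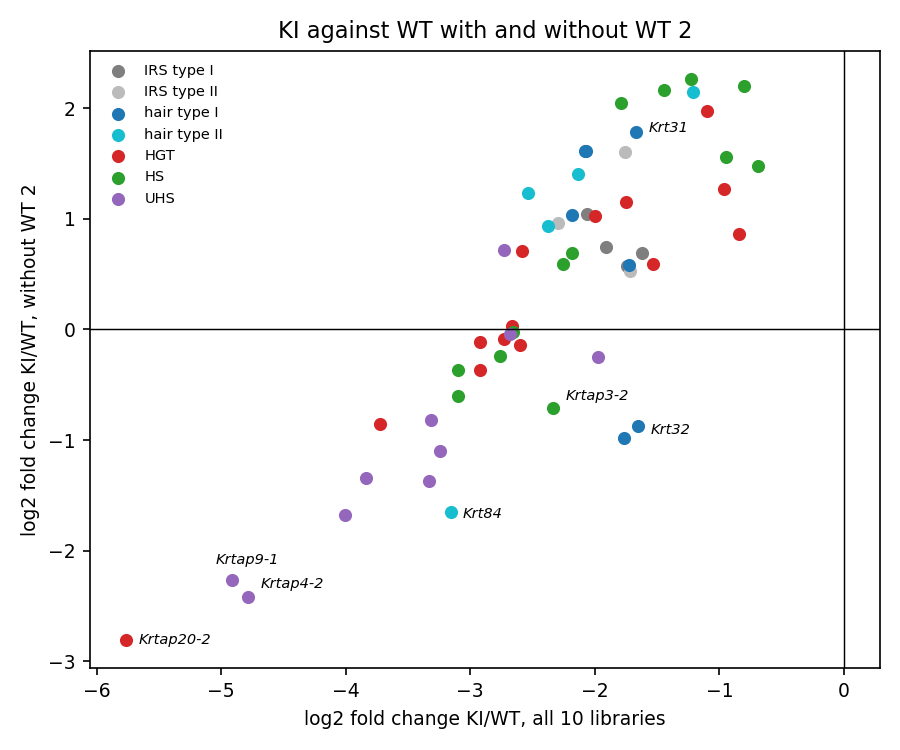
Log2 fold change KI/WT of the 56 tested members over all 10 libraries (horizontal axis) and without WT 2 (vertical axis), each point 1 gene coloured by class. All points lie left of 0, and 33 of 56 lie above 0 once WT 2 is left out. Krtap20-2, Krtap9-1 and Krtap4-2 lie lowest on both axes.

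Krtap20-2, which encodes a short glycine-tyrosine-rich protein, had the smallest p for KI against WT. It stood at 2.01 and 3.61 TPM in EAS37 KI libraries, against 3.91, 303 and 31.7 TPM in EAS37 WT libraries, and was at 0 TPM in all 5 EAS42 libraries. Within EAS37 both KI libraries lay below all WT libraries, by little against WT 1 and by much against WT 2. Its log2 fold change was -5.76 ± 2.17 (SE, adjusted p = 0.0730 in edgeR), and -2.80 without WT 2. The ultra-high sulfur genes Krtap4-2 and Krtap9-1 had the same shape. Krtap4-2 stood at 5.40 and 7.38 TPM in EAS37 KI libraries, against 5.38, 333 and 56.8 TPM in EAS37 WT libraries, with a log2 fold change of -4.79 ± 2.10 (SE, adjusted p = 0.115 in edgeR). Krtap9-1 had 4.35 and 8.65 TPM in EAS37 KI libraries, against 5.79, 382 and 51.7 TPM in EAS37 WT libraries, with a log2 fold change of -4.91 ± 2.16 (SE, adjusted p = 0.115 in edgeR). Both overlapped between genotypes through WT 1, and neither passed.

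With genotype alone in the model the keratins gave no call. Krt84 (-3.16 ± 1.70), Krt32 (-1.65 ± 0.80) and Krt36 (-1.77 ± 1.40) were negative with WT 2 and stayed so without it, at -1.65, -0.87 and -0.98 (log2 fold change and SE, edgeR adjusted p of 0.187, 0.142 and 0.361 over all libraries). The signs of Krt25, Krt26, Krt27, Krt28, Krt31, Krt33a, Krt33b, Krt34, Krt35, Krt71, Krt72, Krt73, Krt81, Krt82, Krt83 and Krt86 were negative with WT 2 and positive without it. With title prefix as a block, Krt84 had a log2 fold change of -2.71 (edgeR adjusted p = 0.023), and -1.89 without WT 2 (edgeR adjusted p = 0.0342). Krtap4-2 had -4.11 in the block fit (edgeR adjusted p = 0.0496), and -2.07 without WT 2 (edgeR adjusted p = 0.0882). Krtap3-2 had a log2 fold change of -2.34 ± 0.95 over all libraries (SE, adjusted p = 0.0925 in edgeR), and -0.71 without WT 2.

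Within EAS42, where levels were low, KI and WT could be compared without WT 2. Tested alone, with 18 members past the filter, 5 members fell and 1 rose in KI, where 7.26% and 6.68% of 17845 genes were called lower and higher. Of the 18 members, 4 passed the low-count filter through WT libraries alone and 3 through KI libraries alone, which by itself favours a difference in these 7. Krt84 and Krtap3-1 are among the first and Krt73 among the second, whereas Krtap3-2, Krt32 and Krtap17-1 passed it in both genotypes. Krtap3-2 fell by 1.34 on the log2 scale (edgeR adjusted p = 0.0437), and Krt32 fell by 1.53 (edgeR adjusted p = 0.0413). Krtap3-1 fell by 3.87 (edgeR adjusted p = 0.0249). Krt84, a type II keratin, held 0.15, 0.14 and 0.46 TPM in EAS42 KI libraries, against 2.07 and 1.81 TPM in EAS42 WT libraries. The groups did not meet, and Krt84 fell by 2.998 (edgeR adjusted p = 0.0116). Krtap17-1 held 1.66, 1.25 and 0.23 TPM in EAS42 KI libraries, against 5.32 and 5.83 TPM in EAS42 WT libraries, and fell by 2.37 (edgeR adjusted p = 0.0369).

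Krt73 was the exception. This inner root sheath keratin held 4.25, 2.62 and 2.63 TPM in EAS42 KI libraries, against 0.00 and 0.37 TPM in EAS42 WT libraries, with a log2 fold change of 4.15 (edgeR adjusted p = 0.0383). All 3 KI libraries lay above both WT libraries. Its class mates in EAS42 did not share this: Krt27 and Krt71 overlapped between the genotypes, and Krt28 held 0.80, 2.29 and 4.32 TPM in KI libraries, against 1.43 and 2.55 TPM in WT libraries. In EAS37, Krt73 stood at 2.85 and 24.0 TPM in KI libraries, against 2.71, 119 and 7.29 TPM in WT libraries. Over the whole set, 15 of 76 genes had all KI libraries below both WT libraries in EAS42 and 2 (Krt73 and Krt83) had them above, where 15.2% and 17.1% of all genes with a count did so.

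**Figure D3:**
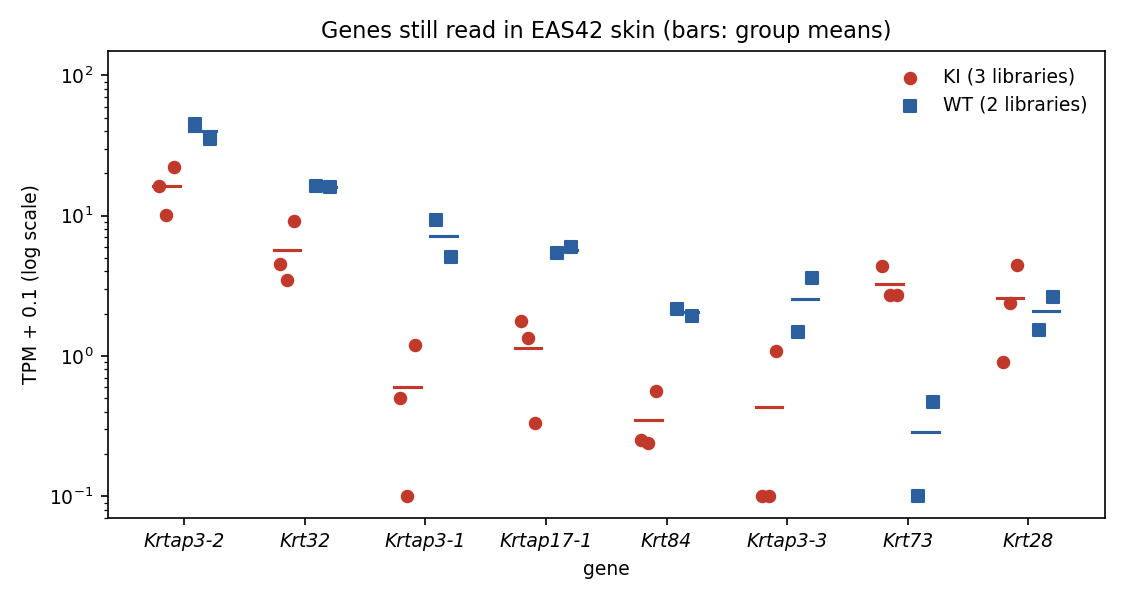
TPM + 0.1 on a log axis in EAS42 skin for 8 genes chosen after their values were seen, with KI libraries (circles, 3) left of WT libraries (squares, 2) and bars at the group means. Krtap3-2 was highest, at 9.97 to 22.0 TPM in KI and 35.4 to 45.1 TPM in WT, and Krt73 alone of the genes shown had every KI library above both WT libraries.

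These EAS42 calls rest on a fit of 5 libraries. In a model of all 10 libraries with 4 genotype-by-prefix groups, which shares the spread with EAS37, no member passed within EAS42, where 15.1% of all genes did, or within EAS37, where 35.8% did. The difference of the KI effect between the prefixes passed for no member in edgeR either, with none at an unadjusted p under 0.05, where 0.866% of all genes passed. Other lists of genes also moved with genotype. The mean log2 CPM of 22 skeletal muscle genes was 6.87 to 10.1 in KI libraries, against 10.03 to 10.7 in WT libraries, and 5 of the 22 fell in KI, where 15.3% of all genes did. In the model of 4 groups 14 of the 22 fell within EAS37, where 18.4% of all genes did, and none within EAS42, where 7.13% did. Their part in the member results was not tested in EAS42 alone. With the muscle level as a covariate over all 10 libraries no member passed, where 2.34% of all genes did, against 30.9% with genotype alone. All 56 members were negative in that fit, and their median log2 fold change was -6.40, against -2.18 with genotype alone. Muscle level itself differed between the genotypes, with little overlap, so this fit can hardly tell the 2 apart.

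Within EAS37 skin the summed inner root sheath keratins ran from 62.5 TPM in WT 1 to 2072 TPM in WT 2, and their proportions varied by gene. Krt71 made up 30.5% and 28.4% of that sum in KI libraries, and 30.3%, 25.4% and 32.1% in WT libraries. Krt25 made up 16.4% and 15.1% in KI libraries, and 13.5%, 16.04% and 14.5% in WT libraries. These shares lay close together, whereas Krt28 made up 2.99% and 4.33% in KI libraries, and 12.1%, 4.23% and 2.12% in WT libraries. Krt72 ranged from 4.70% to 10.1% and Krt73 from 2.48% to 5.76%. A second set of fits, chosen after the data were seen, compared KI with WT in EAS37 at equal mean log2 CPM of these 7 keratins. With 5 libraries and 1 covariate, the fit leaves 2 residual degrees of freedom. The 7 keratins make up the covariate, so their own change is held near 0 and they are left out of the count. Of the other 59 tested members, 8 rose and 1 fell, or 15.3%, beside 29.6% of 17827 genes (16.1% higher and 13.5% lower).

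The 8 that rose belong to the hair shaft keratins and the high sulfur class. They are Krt31, Krt33a, Krt82, Krtap11-1, Krtap13-1, Krtap14, Krtap15 and Krtap16-1, chosen here by their calls. Krtap11-1 stood at 11.5% and 14.3% of the summed inner root sheath level in KI libraries, against 5.16%, 11.2% and 4.78% in WT libraries. Both KI values were above all WT values, narrowly so against WT 2, and the log2 fold change was 1.1 (edgeR adjusted p = 0.00499). Krtap13-1 stood at 10.8% and 12.8% in KI libraries, against 2.24%, 6.23% and 4.60% in WT libraries, with a log2 fold change of 1.51 (edgeR adjusted p = 0.0316). Krtap14 stood at 9.98% and 7.37% in KI libraries, against 4.23%, 4.19% and 4.15% in WT libraries. Krtap15 stood at 12.5% and 9.34% in KI libraries, against 5.14%, 4.23% and 5.34% in WT libraries. All 4 lie on chromosome 16, and for each of them both KI percentages lay above all WT percentages of EAS37. Since the genes were chosen by their calls in these same libraries, this adds no support. Krt31, Krt33a, Krt82 and Krtap16-1, also called, overlapped between the genotypes in percentage. KI 1 stood at 5.81%, 8.23%, 0.722% and 1.715%, below WT 2 at 8.50%, 16.93%, 0.924% and 2.34%, in that order. In TPM, 0 of 76 members had both KI libraries above all WT libraries of EAS37, where 12.8% of all genes with a count did.

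Krtap20-2 fell in the same fit. It stood at 1.75% and 0.739% of the inner root sheath level in KI libraries, against 6.26%, 14.6% and 11.7% in WT libraries, with a log2 fold change of -3.42 (edgeR adjusted p = 0.0417). The ultra-high sulfur genes were mostly negative, 12 of 13 with a median of -0.98, but none passed. Krtap9-1 stood at 3.79% and 1.77% in KI libraries, against 9.27%, 18.4% and 19.1% in WT libraries, and Krtap4-2 at 4.70% and 1.51% in KI libraries, against 8.62%, 16.1% and 20.9% in WT libraries. By chromosome, 15 of 22 Krtap genes on chromosome 16 were positive (median 0.69) and 15 of 19 on chromosome 11 negative (median -0.73), beside a median of 0.00 over all genes. Neighbouring genes share libraries and, in part, sequence, so these counts describe the set and carry no test.

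**Figure D4:**
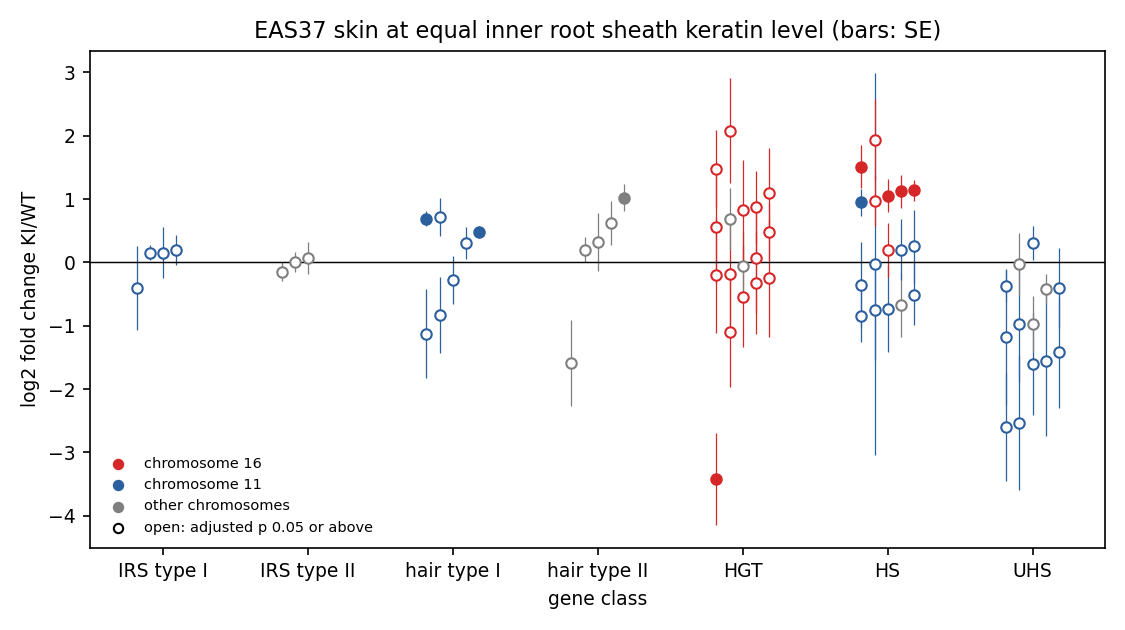
Log2 fold change KI/WT in EAS37 skin at equal inner root sheath keratin level for 66 members (the 7 inner root sheath keratins, which form the covariate, included), by class, with SE bars, coloured by chromosome and filled where the adjusted p was under 0.05. The ultra-high sulfur genes lie mostly below 0 (12 of 13), and Krtap20-2 is the lowest point, at -3.42.

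The calls at equal inner root sheath level changed with the libraries used. Over all 10 libraries with the same covariate, 3 members were called higher (Krt82, Krtap11-1 and Krtap13-1) and 6 lower (Krt32, Krt84, Krtap3-2, Krtap4-2, Krtap9-1 and Krtap20-2), where 18.6% and 18.8% of all genes were. Leaving out 1 EAS37 library at a time gave 4 to 10 calls. Krt31 and Krtap11-1 were called higher in the 3 fits that left out a WT library and kept both KI libraries. Each of the fits without 1 EAS37 library leaves 1 residual degree of freedom. Those without KI 1 or without KI 2 also hold a single KI library, assumed to vary like the WT libraries. Krtap20-2 was not called without KI 2, without WT 2 or without WT 3.

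Other genes of the hair programme were read from a list of 30, of which 29 were tested. Over all libraries 4 rose in KI (Foxq1, Gsdma3, Liph and Lipk) and 7 fell (Bmp2, Bmp4, Cux1, Gata3, Lef1, Msx1 and Tgm3), where 15.6% and 15.3% of all genes were called. Gsdma3, a gasdermin of skin and follicle, stood at 13.7, 15.6, 28.6, 28.2 and 12.5 TPM in KI 1 to 5, against 5.06, 4.73, 3.57, 1.90 and 2.11 TPM in WT 1 to 5. Its groups did not meet, and its log2 fold change was 2.59 (edgeR adjusted p = 0.000736). Lef1, a transcription factor of the hair matrix and a Wnt effector, stood at 0.54, 1.98, 1.48, 1.91 and 3.09 TPM in KI 1 to 5, against 5.78, 3.81, 4.60, 7.84 and 5.02 TPM in WT 1 to 5. It fell by 1.63 on the log2 scale, without overlap (edgeR adjusted p = 0.00495).

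By title prefix 5 of the 29 genes fell in EAS42 and none rose, where 1.69% and 0.785% of all genes were called. They are Tchh, Hoxc13, Dlx3, Msx2 and Prr9. Tchh, trichohyalin of the inner root sheath and medulla, stood at 2.27, 2.28, 2.63, 4.02 and 4.36 TPM in EAS42 (KI 3 to 5, then WT 4 and 5), against 19.1, 69.9, 13.9, 422 and 78.5 TPM in EAS37 (KI 1 and 2, then WT 1 to 3). It fell by 4.84 in EAS42 on the log2 scale (edgeR adjusted p = 0.0416), while its log2 fold change for KI against WT was -2.33 (edgeR adjusted p = 0.302). Hoxc13, the transcription factor known to switch on hair keratin genes, stood at 12.6, 13.6, 11.2, 11.8 and 12.3 TPM in EAS42, against 29.2, 30.8, 29.6, 58.8 and 31.8 TPM in EAS37, in the same order. It was even within each prefix apart from WT 2, and it fell by 1.56 in EAS42 (edgeR adjusted p = 0.0165). Tgm3, a transglutaminase that cross-links structural proteins of the hair, differed otherwise. Its log2 change between the prefixes was 0.49 (edgeR adjusted p = 0.587), and it fell by 1.93 in KI (edgeR adjusted p = 0.00973).

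Of 8 genes of the bulge and outer root sheath, 5 fell in KI, where 15.3% of all genes did, and 1 fell in EAS42, where 1.69% did. Krt15, a keratin of bulge and basal cells, stood at 486, 558, 1136, 1077 and 2196 TPM in KI 1 to 5, against 5398, 3407, 4126, 3269 and 3738 TPM in WT 1 to 5. Its genotypes did not overlap, and it fell by 1.81 on the log2 scale in KI (edgeR adjusted p = 0.00473), with no call between prefixes (0.55, edgeR adjusted p = 0.434). Lgr5, a marker of cycling follicle stem cells, stood at 11.8, 11.7 and 16.5 TPM in EAS42 KI libraries and 9.90 and 11.1 TPM in EAS42 WT libraries, against 9.39, 12.8, 31.6, 34.5 and 32.9 TPM in EAS37 KI 1 and 2 and WT 1 to 3. KI lay below WT in EAS37 alone, and the KI effect differed between the prefixes by 1.62 on the log2 scale, EAS42 minus EAS37 (edgeR adjusted p = 0.0148). Sox9, a transcription factor of follicle stem cells and the 1 gene of the list that fell in EAS42, stood at 39.6, 50.8 and 42.7 TPM in EAS42 KI libraries and 25.5 and 23.8 TPM in EAS42 WT libraries. In EAS37 it stood at 53.6 and 61.2 TPM in KI libraries and 61.9, 69.3 and 58.6 TPM in WT libraries. The prefixes did not overlap (log2 change -0.92, edgeR adjusted p = 0.0247), and within EAS42 it rose in KI by 0.84 on the log2 scale (edgeR adjusted p = 0.00341). Mean log2 CPM of the 8 genes was 5.61 to 6.11 in KI libraries, against 6.35 to 6.88 in WT libraries.

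Other cell lists moved with genotype as well, beside 15.6% of all genes called higher and 15.3% lower. Of 4 wound keratins 3 rose, with a level of 9.36 to 11.5 in KI libraries, against 4.67 to 8.47 in WT libraries, and of 8 proliferation genes all 8 rose, at 4.56 to 5.50 in KI libraries, against 2.98 to 3.97 in WT libraries. Of 7 dermal papilla genes 2 fell, at 1.38 to 2.02 in KI libraries, against 2.17 to 2.58 in WT libraries, and of 10 adipocyte genes 6 fell, at 5.20 to 6.14 in KI libraries, against 6.26 to 7.04 in WT libraries. None of 8 tested hair pigment genes of melanocytes passed between genotypes over all libraries (-0.70 to 1.71 in KI libraries, against 1.05 to 2.77 in WT libraries). In the model of 4 groups 4 of the 8 fell in KI within EAS37 (Dct, Mlana, Pmel and Slc24a5), where 18.4% of all genes did, and none within EAS42, where 7.13% did. By prefix their level was 1.60 to 2.77 in EAS42, against -0.70 to 1.55 in EAS37. Of the 8, 3 rose in EAS42 (Dct, Pmel and Tyr), opposite in direction to the hair keratins. Between the prefixes 0.785% of all genes were called higher in EAS42 and 1.69% lower. The part of these lists in the member results was not tested.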

How the data were processed

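Skin RNA, taken with trizol, went into stranded mRNA libraries, per the labels' protocols, with 1 library per mouse. Each deposited table holds RSEM-style columns. The authors made its estimated (expected) counts, its lengths, its FPKM and its TPM, per the file headers. The submitters' processing notes name, without roles, the build GRCm38, DESeq2 1.14.1, featureCounts, FastQC, Picard 2.8.1 and STAR 2.5.2b. The sources used here do not give the strand setting or annotation release. Levels in the text are the deposited TPM, which are per length. FPKM were not used. The deposited expected counts (10.4% to 12.2% of values per library not whole) were rounded before testing. Depth was 18.96 to 26.43 M counts per library.

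The genes and lists were chosen with earlier results of these data known. Names and coordinates come from GENCODE M21 (55141 of 55487 identifiers matched), and promoters from RefSeq on GRCm38.p6. The classes of keratin-associated proteins were read from codons of the annotated coding sequence, since no protein table was at hand. Members with an overlapping gene numbered 7, and 22 shared over 20% of their 50-base windows with another gene.

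Tests used edgeR 4.0.16 (quasi-likelihood, robust, TMM, R 4.3.3) on the 17321 genes kept by filterByExpr (minimum count 10, minimum total 15). P-values were adjusted by Benjamini-Hochberg over all genes tested, with a threshold of 0.05, and 56 members were tested. The models were genotype alone, genotype with title prefix, and 4 genotype-by-prefix groups for within-prefix effects and their difference. For Hamp, log2 CPM also went through an exact permutation test (two-sided). List levels are mean log2 CPM. Alternatives were DESeq2 1.42.0, limma-voom (limma 3.58.1), DESeq2 size factors, upper quartile scaling, TMM without the members, no filter, a minimum count of 50, the muscle level as a covariate, the title prefix as a block, a non-robust fit, each prefix alone and each library left out. Added after seeing the data were the fits at equal inner root sheath level, EAS37 alone without WT 2, and the title prefix as a block without WT 2. The scripts were tested on simulated data. Sharing of the replicate number pairs no samples, since numbers were given in accession order. Limits from a count of 0 use 3 counts over the group and cover counting error only.

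Genes named are Hamp, the keratins, the 4 Krtap genes of highest mean TPM in each class, up to 6 members with the smallest p for the prefix, the 3 members with the widest TPM range, up to 8 genes of the hair list, Krt15 and Lgr5. Other genes are named for values seen: those of the EAS42 comparison, those at equal inner root sheath level, members at 0 in EAS42, Tgm3, Sox9, Mlana and Slc24a5, and the smallest p for KI against WT.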

Additional observations from a re-analysis of the deposited data

Results flagged for a closer look

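WT 2 lay far above the other WT libraries in the summed level of all members (23666 TPM) and in each class. The class sums in WT 2 were 1362 TPM for type I and 1265 TPM for type II hair shaft keratins, 1218 TPM for type I and 854 TPM for type II inner root sheath keratins, and 9844, 6546 and 2575 TPM for high glycine-tyrosine, high sulfur and ultra-high sulfur genes. KI 2 lay apart from the other KI libraries in the keratin classes, with 299 TPM for type I and 193 TPM for type II hair shaft keratins and 292 TPM for type I and 197 TPM for type II inner root sheath keratins. A library counted as apart when its gap to the next library was over 0.71 of the range of its genotype, in TPM. Chance sets about 1 group in 20 apart by this measure only where its 5 values come from 1 normal distribution. Each genotype here mixes libraries of both prefixes, whose levels differ widely, so that rate does not apply. By gene, 35 of 76 members had a library apart among KI libraries and 72 of 76 among WT libraries, and in all 72 it was WT 2. The members share these libraries and are not separate observations.

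Among genes given values in the report, KI 2 stood apart at 421 TPM for Krtap8-1, 139 TPM for Krt71, 24.0 TPM for Krt73, 47.8 TPM for Krt31, 299.0 TPM for Krtap7-1 and 166 TPM for Krt27. WT 2 stood apart at 303 TPM for Krtap20-2, 521 TPM for Krtap3-2, 333 TPM for Krtap4-2, 382 TPM for Krtap9-1, 74.6 TPM for Krt32, 2058 TPM for Krtap8-1, 526 TPM for Krt71 and 119 TPM for Krt73. It did so too at 915 TPM for Krtap3-1, 207 TPM for Krtap17-1, 176 TPM for Krt31, 318 TPM for Krtap21-1, 491 TPM for Krtap6-2, 1055 TPM for Krtap6-5, 1711 TPM for Krtap7-1 and 649 TPM for Krt27.

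The KI effect on Lgr5 differed between the prefixes by 1.62 on the log2 scale, EAS42 minus EAS37 (edgeR adjusted p = 0.0148).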

How the results depend on the processing

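For KI against WT, where no member was called, the non-robust fit called 1 (Krtap20-2), the title prefix as a block 2 (1 without WT 2), EAS42 alone 6 (none in the model of 4 groups) and EAS37 alone without WT 2 called 1 (Krtap19-4, higher). Leaving out 1 library at a time gave 0 to 1 calls, the 1 being Krt32 without KI 2. The other alternatives called none. For EAS42 against EAS37, with 41 calls, no filter gave 3 of 75, limma-voom 0, and leaving out 1 library 0 to 53. Beside 1.69% in the main fit, 0.707% of all genes were called lower with no filter and 1.30% in limma-voom. With 1 library left out that share was 0.00570% to 1.92%. The difference of the KI effect between prefixes gave 0 calls throughout. At equal inner root sheath level leaving out 1 library gave 4 to 10 calls, beside 9. The hair list gave 4 calls with the muscle level as a covariate, where 2.34% of all genes were called. It gave 11 with genotype alone, where 30.9% were. The cause of these changes was not tested. No paired analysis was possible because replicate numbers were given in accession order.

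Signs of log2 fold changes for KI against WT turned with WT 2. Leaving out 1 library at a time moved Krtap8-1 between -3.90 and 1.02, Krt71 between -3.50 and 0.53, Krt73 between -3.0 and 1.60, and Krt31 between -4.10 and 1.79, each positive without WT 2. In EAS37 alone without WT 2 they were 1.38, 0.87, 1.56 and 2.21 (Krtap8-1, Krt71, Krt73, Krt31), with 0.21 for Krtap3-1 and 0.27 for Krtap17-1. With the title prefix as a block and without WT 2 they were 0.61, 0.38, 2.46 and 1.31 in the same order of genes. Krt73 was also positive in limma-voom (1.82), with the title prefix as a block (0.31) and in EAS42 alone (4.15). The log2 changes of Krtap20-2, Krtap4-2, Krtap9-1, Krtap3-2, Krt32 and Krt84 stayed negative in every alternative run. Depth limits the EAS42 levels of the 20 members with 3 counts or fewer there.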
